A study of Mus musculus with 3 samples.

Results

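The genes described here are 42 genes of the lysosome and of its proton pump, the vacuolar ATPase (V-ATPase), out of 31053 genes in the deposited count tables. They comprise 6 subunits of the membrane-embedded V0 sector, 8 subunits of the cytosolic V1 sector, 2 accessory proteins of the pump, 5 cathepsins, 8 other hydrolases or their activators, 8 membrane or lipid-transfer proteins, and 5 regulators including an autophagy receptor. The list was drawn up by gene name with levels in these cells known, and the levels used were UMIs (counted RNA molecules), given per 1000000 UMIs (CPM), in cells gated by raw counts. The levels and ratios below are therefore a description, without a test.

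The cells came from ear skin of mice and made 3 single-cell RNA libraries. The adult Lang-DTA library came from a pool of 10 Langerin-DTA mice of 8 weeks (4 males, 6 females), a line known to carry diphtheria toxin A under regulatory sequence of human Langerin, active chiefly in epidermal Langerhans cells. The adult WT library came from 10 wild-type mice of 8 weeks (6 males, 4 females) and the young WT library from 8 wild-type mice of 4 weeks (5 males, 3 females). The wild-type mice are labelled C57BL/6J, and the third group by its genotype, Langerin-DTA, alone, with no strain. No group was treated, and per the labels Langerin-DTA males that were hemizygous were bred to WT females, with WT littermates serving as controls. Before loading, sorted lymphatic endothelial cells, blood endothelial cells, CD45+ leukocytes and CD45- CD31- cells were pooled in equal proportions, so cell numbers do not give their shares in the skin. With 1 library per condition there is no replicate error, no test was made, and the 95% intervals in parentheses cover counting error only.

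The lysosome is the acidic compartment in which cells break down proteins, glycans, lipids and worn-out organelles. The V-ATPase pumps protons into it: the V1 sector hydrolyses ATP in the cytosol and turns a ring of V0 proteolipids in the membrane. Many lysosomal genes carry CACGTG letters near their start, within a longer motif bound by the transcription factors TFEB, TFE3 and MITF, and these factors are held in the cytosol through Rag GTPases on the lysosome surface and released when nutrients are short or the lysosome is damaged. Macrophages are known for a high lysosome content, and lymphatic endothelium lines the vessels that drain fluid and leukocytes from the dermis.

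RefSeq promoter sequence (GRCm38.p6, 250 bases before to 50 after the start) was matched by symbol for 35 of the 42 genes; the others were Atp6v0d2, Atp6v1b2, Atp6v1c1, Atp6v1g1, Atp6v1h, Ctsb and Npc1. CACGTG, which reads the same on both strands, stood in 12 of the 35 (34.3%), against 8.09% of the 27025 genes in the table. The longer TCACGTGA, which contains it, stood in 7 of the 35 (Atp6v0d1, Atp6v0e, Atp6v1a, Ctsa, Ctsd, Gla and Mcoln1), against 1.12% of all genes. The full CLEAR palindrome, which contains both, stood in 0 of the 35 and in 0.370% of all genes. CATGTG, a related E-box that overlaps none of these and was read on both strands, stood in 5 of the 35 and in 15.9% of all genes. The sequences below are shown because they carry the CACGTG letters, in capitals, in genes whose levels in lymphatic cells are described further on. They run 5′ to 3′ on the gene's own strand. Lamp1 (chr8:13159061-13159160, plus strand) holds 4 copies within the 100 bases before its start, and Atp6v0b (chr4:117887334-117887409, minus strand) holds 2. Atp6v1a (chr16:44139360-44139419, minus strand) and Mcoln1 (chr8:3500389-3500456, plus strand) are shown with 1 copy each, and for Ctsd (chr7:142387912-142387933, minus strand), Gla (chrX:134601186-134601207, minus strand) and Naglu (chr11:101070013-101070034, plus strand) only 22 bases around a copy are given.
Lamp1: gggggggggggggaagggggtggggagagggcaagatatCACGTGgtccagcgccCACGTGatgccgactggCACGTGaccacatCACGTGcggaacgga
Atp6v0b: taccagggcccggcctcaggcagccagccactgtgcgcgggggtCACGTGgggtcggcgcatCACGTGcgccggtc
Atp6v1a: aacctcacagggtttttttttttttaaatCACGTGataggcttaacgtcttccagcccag
Mcoln1: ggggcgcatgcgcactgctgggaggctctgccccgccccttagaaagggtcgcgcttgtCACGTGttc
Ctsd: ccgcgtctCACGTGacccgttg
Gla: atctcggtCACGTGagcaactc
Naglu: cttcaggtCACGTGgcccgagg
A match in these letters is a description of sequence and does not show that a factor binds there.

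Cells were gated by raw UMIs. At least 2 UMIs of Prox1, the transcription factor of lymphatic identity, gave 2165 cells in the adult Lang-DTA library, 1436 in the adult WT library and 3723 in the young WT library, with a median depth of 9060, 4947.5 and 7694 UMIs per cell in adult Lang-DTA, adult WT and young WT cells. These Prox1 cells were split by Gdf15, a secreted stress-response factor, into cells with at least 2 Gdf15 UMIs and cells with none. The other gates were Cdh5 and Ptprb with no Prox1 or Mmrn1 (blood endothelial gate), Krt5 and Krt14 (keratinocyte gate), Dpt (fibroblast gate), the C1q genes (macrophage gate) and Cd207 (Langerhans cell gate). The Cd207 gate, which checks the genotype, held 5 cells in the adult Lang-DTA library, 407 in adult WT and 564 in young WT. In each library all 7 lymphatic markers were above 10 CPM in the Prox1 cells, although Prox1, 1 of the 7, was set by the gate. The summed level of the 7 was 6851 CPM in adult Lang-DTA cells, against 16673 CPM in adult WT and 11599 CPM in young WT cells. Ccl21a made the largest part, at 2524 CPM in adult Lang-DTA, 9100 CPM in adult WT and 4058 CPM in young WT cells. Pdpn alone was higher in adult Lang-DTA cells (294 CPM) than in adult WT (243 CPM) and young WT cells (203 CPM). Summed macrophage markers in the Prox1 gate were at 38.0 CPM in adult Lang-DTA cells, against 93.9 CPM in adult WT and 95.5 CPM in young WT cells, with 2 of 7 above 10 CPM in each library. Summed melanocyte markers were at 13.5 CPM in adult Lang-DTA cells, against 2.56 CPM in adult WT and 1.40 CPM in young WT cells, with 0 of 5 above 10 CPM. Blood endothelial and fibroblast markers were also found in Prox1 cells, and are given below by Gdf15 split for adult Lang-DTA cells. The gate is therefore not free of transcripts of other lineages, and their part in the difference between genotypes was not tested. A count without cells that held macrophage, melanocyte or Ptprc UMIs is given in the last section. It does not cover blood endothelial or fibroblast transcripts. Cells that passed more than 1 lineage gate numbered 18, 34 and 63, and barcodes shared with another library 89, 86 and 97, in the adult Lang-DTA, adult WT and young WT libraries.

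In Prox1 cells the lysosome and V-ATPase genes stood far higher in the adult Lang-DTA library than in either wild-type library. Their summed level was 11780 CPM in adult Lang-DTA cells, against 4709 CPM in adult WT and 5351 CPM in young WT cells, a ratio to adult WT of 2.50 (2.47 to 2.53). The levels were compared by fold for genes with a mean of at least 10 CPM and at least 30 UMIs over both libraries, which 41 of the 42 met. Of these, 27 were higher in adult Lang-DTA cells by at least 1.5-fold, against 23.3% of all 8837 genes that met the same minimum. Tfeb was lower by at least 1.5-fold, against 16.2% of all genes, and 13 lay within 1.5-fold. The median log2 ratio was 1.20 over the genes of the list counted and 0.10 over all genes. Atp6v0c, Naglu and Rragd were under 10 CPM in adult WT cells and met the minimum only through their level in adult Lang-DTA cells. Cells could be called male or female from sex-linked genes, and all 27 were also at least 1.5-fold higher in male-called cells (710 adult Lang-DTA, 446 adult WT) and in female-called cells (1204 adult Lang-DTA, 652 adult WT), which are parts of the same libraries and not replicates.

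**Figure D1:**
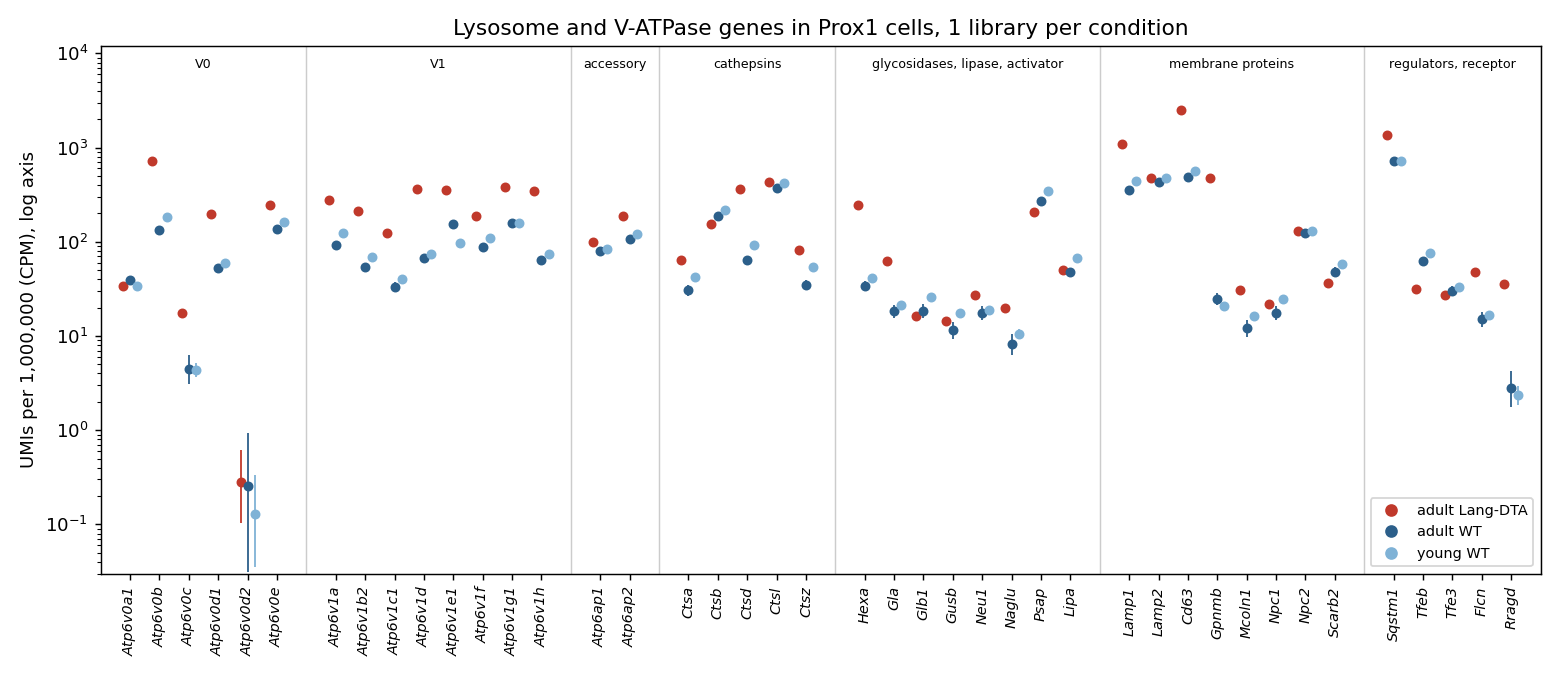
Level of each of the 42 genes in Prox1 cells (CPM, log axis), grouped by role, with adult Lang-DTA in red, adult WT in dark blue and young WT in light blue. Points are 1 library each and bars are 95% Poisson intervals of the counts; most red points lie above both blue points, while Tfeb, at 31.3 CPM in adult Lang-DTA cells, lies below them.

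Most subunits of the pump in the list stood higher, in both of its sectors. The isoforms of the large V0 subunit that could be counted did not. Atp6v0a1 and, outside the list, Atp6v0a2 (0.751-fold, 0.679 to 0.832) were within 1.5-fold, and Tcirg1 was lower (0.546-fold). All 8 V1 subunits were higher by at least 1.5-fold, as were 4 of the 5 V0 subunits counted. Summed V1 levels were 2251 CPM in adult Lang-DTA cells and 711 CPM in adult WT cells, and summed V0 levels 1219 CPM in adult Lang-DTA cells and 368 CPM in adult WT cells. Among the V0 genes, Atp6v0b, a proteolipid of the rotating ring (chr4:117884326-117887333, GRCm38, GENCODE M21), was at 728 CPM in adult Lang-DTA cells, against 135 CPM in adult WT and 184 CPM in young WT cells, a ratio to adult WT of 5.40 (5.07 to 5.75). Atp6v0d1, which couples the ring to the central stalk, was at 196 CPM in adult Lang-DTA cells, against 53.0 CPM in adult WT and 59.3 CPM in young WT cells (3.69-fold, 3.33 to 4.09). Atp6v0e, a small membrane subunit, was at 244 CPM in adult Lang-DTA cells, against 137 CPM in adult WT and 163 CPM in young WT cells (1.78-fold, 1.67 to 1.91). In all 3 genes the adult Lang-DTA library was the highest and the 2 wild-type libraries lay close together. Atp6v0c, the main proteolipid of the ring, was counted at only 17.5 CPM in adult Lang-DTA cells, against 4.48 CPM in adult WT and 4.39 CPM in young WT cells (3.91-fold, 2.76 to 5.70). It has processed pseudogenes in the annotation that could share its reads, so its level is uncertain. Atp6v0a1, an isoform of the large proton-path subunit, was within 1.5-fold, at 34.2 CPM in adult Lang-DTA cells, against 39.0 CPM in adult WT and 34.0 CPM in young WT cells. Atp6v0d2, an isoform known from osteoclasts and macrophages, had 6 UMIs in adult Lang-DTA, 2 in adult WT and 4 in young WT cells, and was not compared.

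In the V1 sector the largest ratios were those of Atp6v1h and Atp6v1d. Atp6v1h, which regulates the coupling of the sectors, was at 348 CPM in adult Lang-DTA cells, against 63.7 CPM in adult WT and 74.6 CPM in young WT cells (5.47-fold, 5.00 to 6.00). Atp6v1d, part of the rotor, was at 365 CPM in adult Lang-DTA cells, against 67.0 CPM in adult WT and 73.7 CPM in young WT cells (5.45-fold, 4.99 to 5.97). The subunits of the catalytic hexamer were both higher in adult Lang-DTA cells. Atp6v1b2 was at 211 CPM in adult Lang-DTA cells, against 54.1 CPM in adult WT and 68.3 CPM in young WT cells (3.90-fold, 3.52 to 4.31). Atp6v1a was at 277 CPM in adult Lang-DTA cells, against 92.5 CPM in adult WT and 123 CPM in young WT cells (2.99-fold, 2.77 to 3.24). The stalk subunits were higher too. Atp6v1c1 was at 123 CPM in adult Lang-DTA cells, against 32.9 CPM in adult WT and 40.6 CPM in young WT cells (3.72-fold, 3.27 to 4.25). Atp6v1g1 was at 384 CPM in adult Lang-DTA cells, against 158 CPM in adult WT and 159 CPM in young WT cells (2.43-fold, 2.29 to 2.59). Atp6v1f, of the rotor, was the smallest at 188 CPM in adult Lang-DTA cells, against 87.9 CPM in adult WT and 110 CPM in young WT cells (2.13-fold, 1.97 to 2.32). Atp6v1e1 differed between all 3 libraries: it was at 355 CPM in adult Lang-DTA cells, against 155 CPM in adult WT and 96.3 CPM in young WT cells (2.30-fold over adult WT, 2.16 to 2.44). Of the accessory proteins, Atp6ap2, also known as the prorenin receptor, was at 186 CPM in adult Lang-DTA cells, against 108 CPM in adult WT and 120 CPM in young WT cells (1.72-fold, 1.60 to 1.86). Atp6ap1 had a ratio of 1.24 (1.13 to 1.36), within 1.5-fold.

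The cathepsins, the proteases of the lysosome, did not move together. Ctsd, the aspartic protease cathepsin D (chr7:142375911-142388038), was at 361 CPM in adult Lang-DTA cells, against 63.9 CPM in adult WT and 92.6 CPM in young WT cells (5.65-fold, 5.16 to 6.20). Ctsz, a cysteine carboxypeptidase, was at 82.7 CPM in adult Lang-DTA cells, against 34.9 CPM in adult WT and 54.1 CPM in young WT cells (2.37-fold, 2.09 to 2.71). Ctsa, which also protects beta-galactosidase and neuraminidase, was at 63.8 CPM in adult Lang-DTA cells, against 30.5 CPM in adult WT and 42 CPM in young WT cells (2.09-fold, 1.82 to 2.41). The cysteine endopeptidases Ctsb and Ctsl lay within 1.5-fold. Ctsb was at 154 CPM in adult Lang-DTA cells and 187 CPM in adult WT cells, and Ctsl at 429 CPM in adult Lang-DTA cells and 369 CPM in adult WT cells.

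Of the 8 other hydrolases and activators, 4 were higher by at least 1.5-fold. Hexa, the alpha subunit of beta-hexosaminidase, which degrades gangliosides (chr9:59539540-59565109), was at 247 CPM in adult Lang-DTA cells, against 34.0 CPM in adult WT and 41.3 CPM in young WT cells (7.28-fold, 6.44 to 8.27). Gla, alpha-galactosidase A, was at 63 CPM in adult Lang-DTA cells, against 18.3 CPM in adult WT and 21.4 CPM in young WT cells (3.44-fold, 2.89 to 4.12). Naglu, of heparan sulfate breakdown, was at 19.7 CPM in adult Lang-DTA cells, against 8.20 CPM in adult WT and 10.6 CPM in young WT cells (2.40-fold, 1.84 to 3.18). Neu1, a sialidase, stood just past the fold used, at 27.4 CPM in adult Lang-DTA cells, against 17.7 CPM in adult WT and 19.0 CPM in young WT cells (1.55-fold, 1.28 to 1.88). The remaining 4 were within 1.5-fold of adult WT: Psap, the saposin precursor, had a ratio of 0.780 (0.741 to 0.822), Glb1 of 0.876 (0.719 to 1.07), Lipa, the acid lipase, of 1.04 (0.923 to 1.17) and Gusb of 1.24 (0.979 to 1.59).

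Among the membrane proteins Gpnmb had the largest ratio of the 41 genes of the list compared. Gpnmb, a transmembrane glycoprotein known from macrophages, melanocytes and lipid-laden cells (chr6:49036546-49070929, GRCm38), was at 472 CPM in adult Lang-DTA cells, against 24.7 CPM in adult WT and 21 CPM in young WT cells, a ratio to adult WT of 19.1 (16.6 to 22.1). At least 1 Gpnmb UMI was found in 53.8% of adult Lang-DTA, 10.5% of adult WT and 11.5% of young WT Prox1 cells, and with every cell thinned to 3000 UMIs in 42.5%, 7.33% and 5.15% of adult Lang-DTA, adult WT and young WT cells. T cells, which should lack Gpnmb, had a UMI in 0.714%, 0.290% and 0.405% of adult Lang-DTA, adult WT and young WT cells at median depths of 5604, 6946 and 8996 UMIs, far below the Prox1 cells of the same library. Cd63, a tetraspanin of late endosomes, was the most abundant of the genes in adult Lang-DTA cells at 2530 CPM, against 482 CPM in adult WT and 567 CPM in young WT cells (5.25-fold, 5.08 to 5.43), and has an annotated pseudogene. In T cells Cd63 was far lower but also differed between libraries, at 15.0 CPM in adult Lang-DTA, 2.81 CPM in adult WT and 4.87 CPM in young WT. Lamp1, the major lysosomal membrane glycoprotein, was at 1090 CPM in adult Lang-DTA cells, against 359 CPM in adult WT and 437 CPM in young WT cells (3.04-fold, 2.92 to 3.16). Its relative Lamp2 was within 1.5-fold, at 479 CPM in adult Lang-DTA cells and 432 CPM in adult WT cells. Mcoln1, the calcium channel mucolipin 1, was at 31.0 CPM in adult Lang-DTA cells, against 12 CPM in adult WT and 16.3 CPM in young WT cells (2.58-fold, 2.07 to 3.23). The cholesterol exporters Npc1 and Npc2 and Scarb2, the carrier of glucocerebrosidase, were within 1.5-fold, with ratios of 1.27 (1.04 to 1.54), 1.04 (0.969 to 1.12) and 0.748 (0.660 to 0.848).

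Among the regulators, the Rag GTPase arm stood higher and the transcription factor Tfeb lower. Rragd, which encodes RagD (chr4:32983037-33022180), was at 35.4 CPM in adult Lang-DTA cells, against 2.82 CPM in adult WT and 2.34 CPM in young WT cells (12.6-fold, 8.23 to 20.2). Flcn, folliculin, the activating protein for RagC and RagD, was at 47.9 CPM in adult Lang-DTA cells, against 15.1 CPM in adult WT and 16.8 CPM in young WT cells (3.17-fold, 2.62 to 3.87). Sqstm1, the autophagy receptor p62, was at 1354 CPM in adult Lang-DTA cells, against 722 CPM in adult WT and 725 CPM in young WT cells (1.87-fold, 1.82 to 1.93). Tfeb (chr17:47737030-47792419) ran the other way, at 31.3 CPM in adult Lang-DTA cells, against 62.0 CPM in adult WT and 75.5 CPM in young WT cells, a ratio to adult WT of 0.504 (0.448 to 0.568). Tfe3 was within 1.5-fold at 27.4 CPM in adult Lang-DTA cells and 30.0 CPM in adult WT cells. Of the 12 genes with CACGTG in their promoter window, 10 were higher by at least 1.5-fold and Ctsl and Glb1 were within it, where 37.9% of all 894 genes with CACGTG that met the minimum were higher. Of the 23 whose window holds no such letters, 13 were higher, where 21.2% of all 6081 such genes were. Whether the letters go with the ratio was not tested.

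Within the adult Lang-DTA library the genes were concentrated in the Prox1 cells that carry Gdf15. Cells with at least 2 Gdf15 UMIs made up 38.0% (36.0 to 40.1) of Prox1 cells in the adult Lang-DTA library, against 12.1% (10.5 to 13.9) in adult WT and 16.9% (15.7 to 18.1) in young WT. After thinning of cells to 3000 UMIs these shares were 31.0% in adult Lang-DTA, 9.52% in adult WT and 12.4% in young WT. In the adult Lang-DTA library the summed level of the genes was 16657 CPM in the 823 cells with Gdf15 and 7328 CPM in the 1196 without, a ratio of 2.27. Here 25 of the 41 genes counted were higher by at least 1.5-fold in the cells with Gdf15, against 13% of all genes. Lower by at least 1.5-fold were 4, Gusb, Lipa, Scarb2 and Tfeb, against 19.5% of all genes, of which 2 were lower with median-of-ratios scaling, where the median gene is centred (it stood at -0.11 on the log2 scale). Atp6v0c and Rragd were under 10 CPM in the cells without Gdf15 and met the minimum only through the cells with it. The largest ratios were those of Gla, at 113 CPM with Gdf15 and 16.9 CPM without (6.73-fold, 5.72 to 7.95), Rragd, at 62.2 CPM with Gdf15 and 9.56 CPM without (6.51-fold, 5.24 to 8.15), and Hexa, at 419 CPM with Gdf15 and 88.3 CPM without (4.74-fold, 4.41 to 5.10). All 8 V1 subunits were higher again, between 1.98-fold for Atp6v1g1 and 3.83-fold for Atp6v1h. Scarb2 was at 25 CPM with Gdf15 and 45.6 CPM without (0.547-fold, 0.466 to 0.640), and Tfeb at 22.1 CPM with Gdf15 and 39.9 CPM without (0.553-fold, 0.467 to 0.654). Ctsz, higher in adult Lang-DTA Prox1 cells as a whole, differed little between the classes at 88.5 CPM with Gdf15 and 76.3 CPM without. In the cells with Gdf15 of the adult Lang-DTA library the macrophage markers C1qa, C1qb and C1qc were at 0.205, 0 and 0.103 CPM, and the melanocyte markers summed to 23 CPM, against 5.82 CPM in those without. Other markers and the mitochondrial share also moved with the split. In cells with Gdf15 against those without, the 7 blood endothelial markers summed to 1230 and 1977 CPM, with Selp at 28.4 and 343 CPM and Flt1 at 6.57 and 112 CPM. The 6 fibroblast markers summed to 17.5 CPM with Gdf15 and 269 CPM without, with Dcn at 7.81 CPM with Gdf15 and 121 CPM without. The 7 lymphatic markers summed to 5697 CPM with Gdf15 and 8087 CPM without, and the median mitochondrial share of UMIs was 0.670% with Gdf15 and 1.60% without. The part of these in the split was not tested.

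The same split in the wild-type libraries gave a small difference. The summed level was 5500 CPM in the 174 adult WT cells with Gdf15 and 4528 CPM in the 1185 without (1.21-fold), and 6222 CPM in the 628 young WT cells with Gdf15 and 5080 CPM in the 2872 without (1.22-fold). In adult WT 3 of the 38 genes counted were higher by at least 1.5-fold in cells with Gdf15 (Hexa, Atp6v1f and Ctsz), against 4.9% of all genes, and 3 were lower (Neu1, Lipa and Npc1), against 12.7% of all genes; with doublet calls kept 0 were higher and 1 was lower. In young WT Sqstm1 and Gla were higher, at 1.66-fold and 1.55-fold, against 1.75% of all genes, and 0 of 39 were lower, against 7.15% of all genes. Gpnmb was at 720 CPM in adult Lang-DTA cells with Gdf15, against 20.8 CPM in adult WT and 24.4 CPM in young WT cells with Gdf15.

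**Figure D2:**
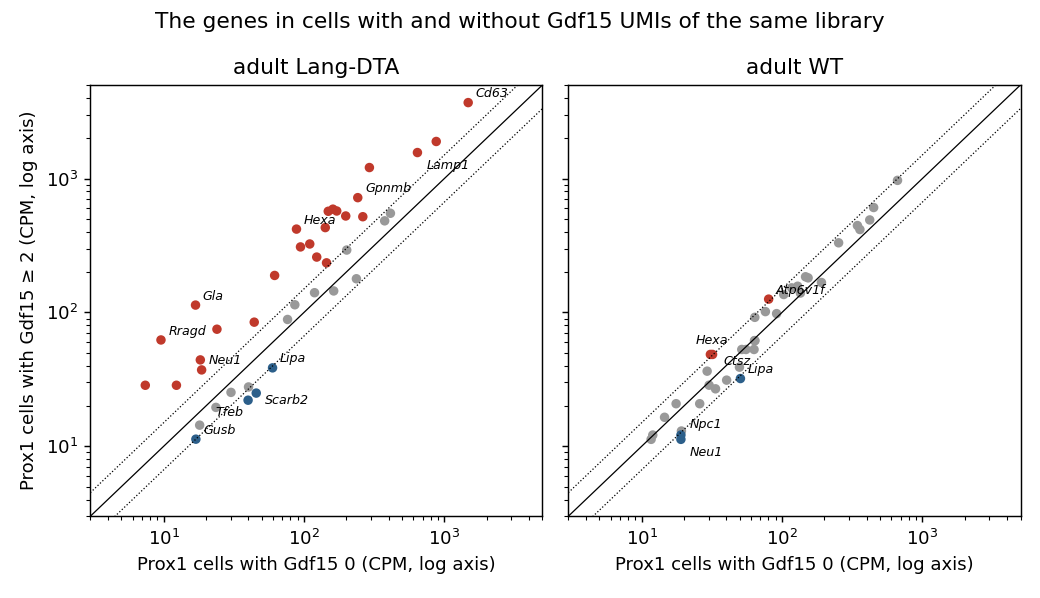
Level of each gene counted in Prox1 cells with at least 2 Gdf15 UMIs (vertical axis, CPM, log) against Prox1 cells with none (horizontal axis, CPM, log), for the adult Lang-DTA library on the left and the adult WT library on the right. Dotted lines mark 1.5-fold; red points are higher and blue points lower by at least that much, 25 and 4 genes in adult Lang-DTA and 3 and 3 in adult WT.

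Across finer classes of Gdf15 UMIs the share of the genes per cell went up with Gdf15, most in adult Lang-DTA cells. With every cell thinned to 3000 UMIs, the median share of a cell's UMIs that came from the 42 genes was 0.567% at no Gdf15 UMI, 0.733% at 1, 0.8% at 2 to 3, 0.867% at 4 to 7 and 1.60% at 8 or more in adult Lang-DTA cells. The wild-type medians also went up from the first to the last class, by less. They were 0.433%, 0.5%, 0.467%, 0.533% and 0.6% over the same classes in adult WT cells and 0.5%, 0.567%, 0.567%, 0.633% and 0.633% in young WT cells. At each class the adult Lang-DTA median was the highest of the 3 libraries. Gdf15 classes were set before thinning, and median depth in adult Lang-DTA cells was 7586 UMIs at no Gdf15 UMI and 11560 at 8 or more. Over all Prox1 cells the thinned median was 0.733% in adult Lang-DTA, against 0.467% in adult WT and 0.533% in young WT, and without thinning 0.696%, 0.457% and 0.523% in adult Lang-DTA, adult WT and young WT. Thinning left out 171 adult Lang-DTA, 249 adult WT and 284 young WT cells. The highest share in any thinned adult WT cell was 1.23%, and 553 of the 1994 thinned adult Lang-DTA cells lay above it, against 3 of the 3439 in young WT; of the 553, 429 had at least 2 Gdf15 UMIs and 97 had none.

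**Figure D3:**
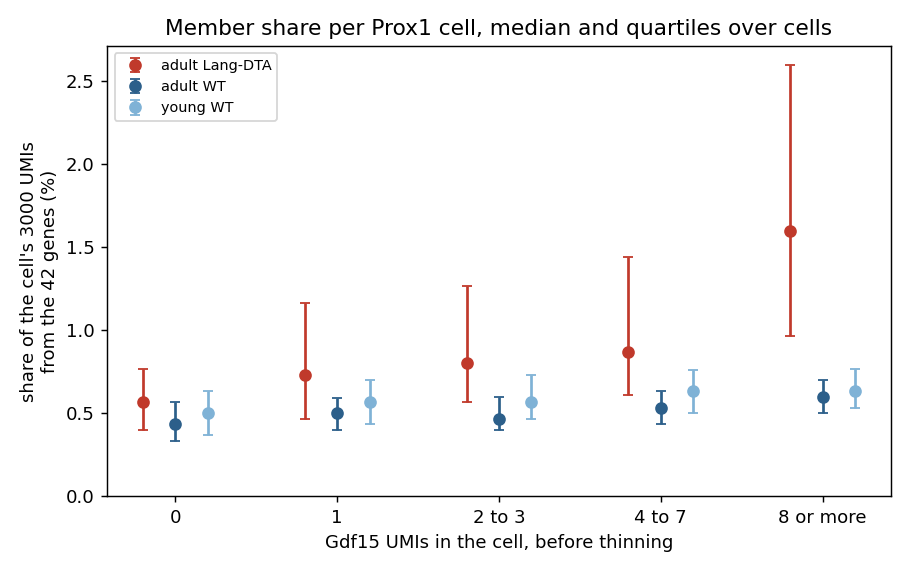
Share of a Prox1 cell's UMIs that came from the 42 genes, by the number of Gdf15 UMIs in the cell, with cells thinned to 3000 UMIs. Points are medians and bars quartiles over cells of 1 library; adult Lang-DTA cells (red) reach a median of 1.60% at 8 or more Gdf15 UMIs, where adult WT cells (dark blue) are at 0.6% and young WT cells (light blue) at 0.633%.

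Prox1 cells without any Gdf15 UMI still differed between the genotypes, by less. The summed level was 7328 CPM in the 1196 adult Lang-DTA cells and 4528 CPM in the 1185 adult WT cells (1.62-fold, 1.60 to 1.64). Of the 39 genes counted 17 were higher by at least 1.5-fold in adult Lang-DTA cells, against 19.4% of all genes, and Tfeb was lower (0.632-fold), against 11.5% of all genes. The largest ratios were those of Gpnmb, at 241 CPM in adult Lang-DTA cells and 25.9 CPM in adult WT cells (9.32-fold), Cd63, at 1477 CPM in adult Lang-DTA cells and 449 CPM in adult WT cells (3.29-fold), and Hexa, at 88.3 CPM in adult Lang-DTA cells and 30.9 CPM in adult WT cells (2.86-fold). V1 subunits were again higher in 7 of 8. Gla and Neu1 did not differ by the fold used, at 16.9 CPM in adult Lang-DTA cells and 17.6 CPM in adult WT cells for Gla, and 18.6 CPM in adult Lang-DTA cells and 19.0 CPM in adult WT cells for Neu1. Among cells with at least 2 Gdf15 UMIs the genotypes differed more widely: 28 of 41 genes were higher in adult Lang-DTA cells, against 28.9% of all genes, and Tfeb, Psap and Scarb2 were lower, against 20.8% of all genes. Of the 28, Atp6v0c, Naglu and Rragd were under 10 CPM in adult WT cells with Gdf15. They met the minimum only through the adult Lang-DTA cells. Psap was at 178 CPM in adult Lang-DTA cells with Gdf15 and 331 CPM in adult WT cells with Gdf15 (0.539-fold). Of the 25 genes higher in Prox1 cells as a whole that could be counted in both classes, 24 had a larger log2 ratio among cells with Gdf15, with a median difference of 1.36. Of all 1925 genes chosen in the same way, 72.4% had a larger log2 ratio there, with a median difference of 0.35. Both classes are cells of the same 2 libraries, and whether the ratio depends on Gdf15 was not tested.

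Set against young WT, Prox1 cells of the adult Lang-DTA library had 25 of 41 genes higher by at least 1.5-fold, against 20.3% of all genes, and 4 lower (Tfeb, Psap, Scarb2 and Glb1), against 18.4% of all genes. The 3 highest were Gpnmb (22.5-fold), Rragd (15.1-fold) and Hexa (5.99-fold). Atp6v0c and Rragd, and among cells with Gdf15 also Naglu, were under 10 CPM in young WT cells. They met the minimum only through the adult Lang-DTA cells. The adult Lang-DTA library enters both comparisons, so they are not independent of each other. Between cells with Gdf15 of these libraries 27 were higher and 6 lower, against 25.5% and 23.4% of all genes, and between cells without it 13 were higher and 1 lower, against 15.2% and 12.4% of all genes.

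Outside the Prox1 gate the genotypes differed far less. In the blood endothelial gate (2452 adult Lang-DTA cells, 3257 adult WT cells) the summed level was 3934 CPM in adult Lang-DTA cells, against 3214 CPM in adult WT cells (1.22-fold). There 5 of 38 genes were higher by at least 1.5-fold in adult Lang-DTA cells, against 1.6% of all genes, and 0 were lower, against 0.502% of all genes. These were Gpnmb, at 22.5 CPM in adult Lang-DTA cells and 0.846 CPM in adult WT cells (26.6-fold, 18 to 40.8), Cd63, at 187 CPM in adult Lang-DTA cells and 48.9 CPM in adult WT cells (3.82-fold), Hexa (1.99-fold), Atp6v0b (1.91-fold) and Atp6v1h (1.54-fold). Gpnmb met the minimum only through the adult Lang-DTA cells, with 27 UMIs in adult WT cells. The Gpnmb UMIs sat in few cells: 28 of the 2452 adult Lang-DTA cells, those with at least 5, held 428 of the 473 UMIs, and 24 of the 28 also had a UMI of Lyve1, Flt4, Pdpn or Reln, against 13.8% of the whole gate. In adult WT 2 cells held 23 of the 27 UMIs. The interval of the Gpnmb ratio treats UMIs as independent and does not cover this clustering in cells. Summed lymphatic markers in this gate were 36.8 CPM in adult Lang-DTA cells, against 15.9 CPM in adult WT and 24.4 CPM in young WT cells. The gate itself sets Prox1 and Mmrn1 to 0, so the sum covers the remaining lymphatic markers only. With all cells that had a UMI of Lyve1, Flt4, Pdpn or Reln left out, Gpnmb was at 3.14 CPM in adult Lang-DTA cells and 0.899 CPM in adult WT cells, under the minimum for a fold. T cells held Gpnmb at 2.33 CPM in adult Lang-DTA and 0.496 CPM in adult WT. In the blood endothelial cells left, Cd63 was 2.09-fold and Hexa 1.54-fold higher in adult Lang-DTA cells, and Atp6v0b and Atp6v1h were within 1.5-fold.

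In keratinocytes the genes were at nearly the same level in both genotypes. The summed level was 3290 CPM in 2512 adult Lang-DTA cells and 3172 CPM in 2276 adult WT cells, and of 35 genes counted Gpnmb alone passed 1.5-fold, at 22.9 CPM in adult Lang-DTA cells and 14.7 CPM in adult WT cells (1.55-fold), against 0.129% of all genes. It was within 1.5-fold in male-called and in female-called keratinocytes. Lower were 0, against 0.187% of all genes. In Dpt fibroblasts (454 adult Lang-DTA and 349 adult WT cells) 0 of 38 were higher, against 4.85% of all genes, and Gpnmb was lower, against 2.75% of all genes, at 97.4 CPM in adult Lang-DTA cells, 193 CPM in adult WT cells and 80.9 CPM in young WT cells. Markers of other lineages differed between libraries in this gate. Rgs5, of vessel wall cells, was at 133 CPM in adult Lang-DTA and 374 CPM in adult WT cells. Col9a1, of cartilage, was at 135 CPM in adult Lang-DTA and 72.7 CPM in adult WT cells. Their part in the Gpnmb difference was not tested. Among the 6 lineage gates, which hold 62.9% of adult Lang-DTA, 65.0% of adult WT and 65.7% of young WT cells, the C1q macrophages had the highest summed level in each library, and adult Lang-DTA Prox1 cells with Gdf15 exceeded it. Summed levels in macrophages were 12623 CPM in 128 adult Lang-DTA cells, 10707 CPM in 66 adult WT cells and 13955 CPM in 238 young WT cells. Of 40 genes counted 4 were higher in adult Lang-DTA macrophages, against 11% of all genes, so that the share was not above the background, and 0 were lower, against 8.33%. They were Gpnmb, with 36 UMIs in adult Lang-DTA cells and 0 in adult WT cells, Atp6v0c (4.02-fold), Ctsd (1.82-fold) and Glb1 (1.68-fold, 0.963 to 3.07). With 3 counts put for 0, Gpnmb was 7.42-fold higher, a point value and not a lower bound. Gpnmb and Atp6v0c met the minimum only through the adult Lang-DTA cells. With cells that passed another lineage gate left out, 2 were higher. Cd207, the gene of Langerin, was at 0 CPM in adult Lang-DTA macrophages, against 517 CPM in adult WT macrophages, which therefore include cells with Langerhans transcripts. With 5 adult Lang-DTA cells in the Cd207 gate, genotypes were not compared in it. Of the 27 genes higher in adult Lang-DTA Prox1 cells, 5 were also higher in the blood endothelial gate, against 1.6% of all genes. In macrophages 3 were, against 11%, in keratinocytes 1, against 0.129%, and in fibroblasts 0, against 4.85%. Not counted were 3 of the 27 in the blood endothelial gate, 2 in macrophages, 6 in keratinocytes and 3 in fibroblasts. How often all genes higher in Prox1 cells were also higher in these gates was not counted. The difference between gates has no replicate and was not tested.

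**Figure D4:**
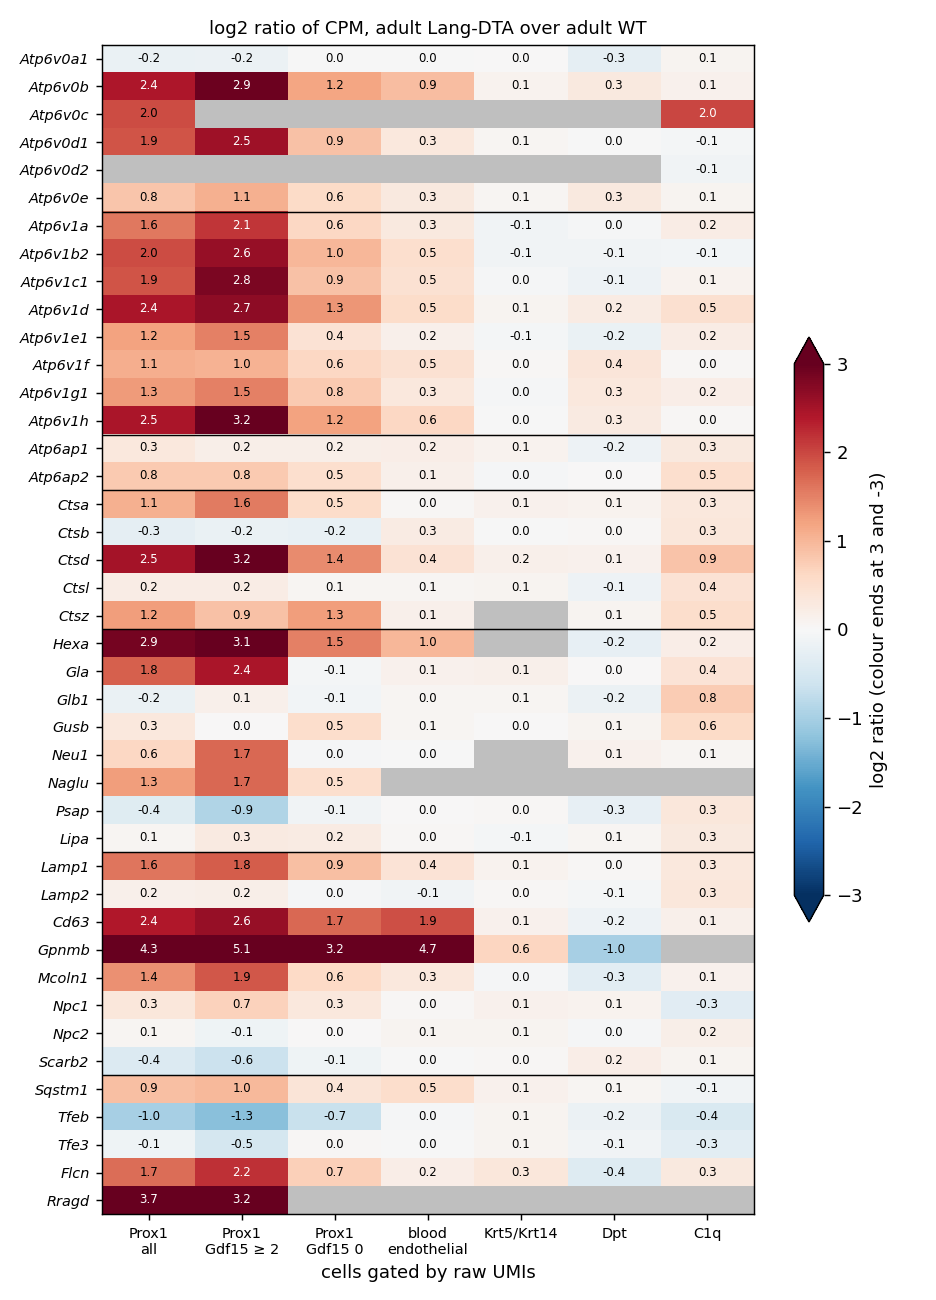
Log2 ratio of CPM, adult Lang-DTA over adult WT, for each gene (rows, grouped by role) in each gate (columns), printed in the cell to 1 decimal. Grey marks ratios under the minimum level or with 3 or fewer UMIs in a library; the Prox1 columns are mostly red and the keratinocyte and Dpt columns mostly near 0.

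**Figure D5:**
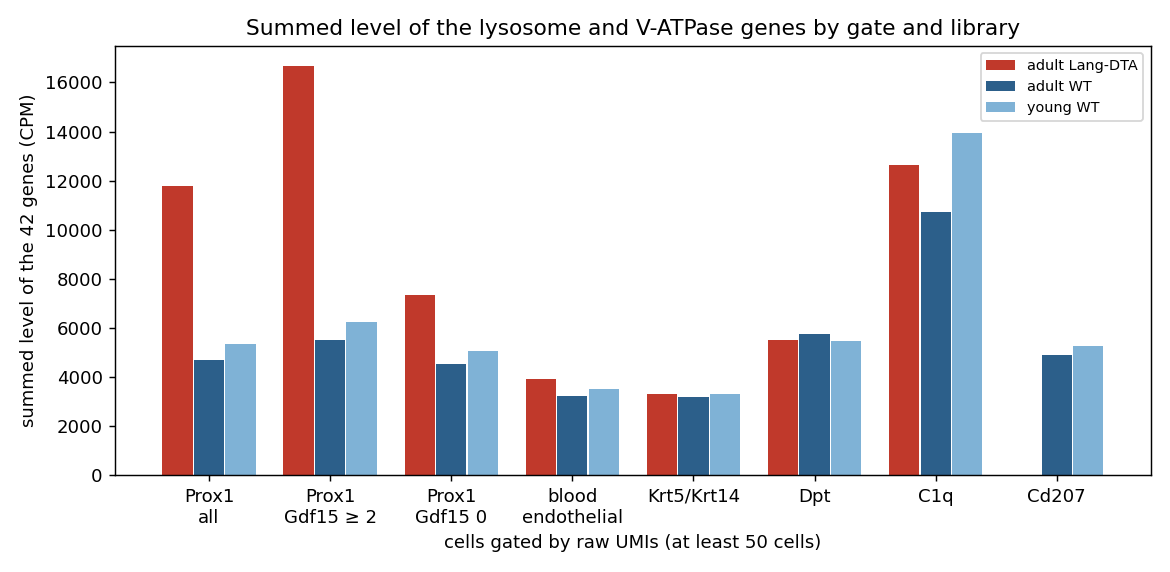
Summed level of the 42 genes (CPM) by gate, with adult Lang-DTA in red, adult WT in dark blue and young WT in light blue, 1 library each and no replicate error. The Prox1 cells with Gdf15 of the adult Lang-DTA library reach 16657 CPM, above the macrophages at 12623 CPM in the same library.

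Between the ages most of the genes lay within 1.5-fold. In Prox1 cells the summed level was 4709 CPM in adult WT and 5351 CPM in young WT, a ratio of 0.880, and the median log2 ratio was -0.25 over the genes of the list counted and -0.10 over all genes. Of 38 genes counted Atp6v1e1 was higher by at least 1.5-fold in adult WT cells, against 4.73% of all genes, and Ctsz (0.645-fold) and Gusb (0.652-fold) were lower, against 4.87% of all genes. With median-of-ratios scaling, which centres the genes, 1 was higher and 0 lower. Among Prox1 cells with Gdf15, 1 was higher and 10 were lower in adult WT, against 7.25% and 11.5% of all genes; the lowest ratios were those of Lipa (0.508-fold), Ctsd (0.545-fold) and Neu1 (0.560-fold). Among those without Gdf15, 1 was higher and 2 were lower, against 4.87% and 5.48% of all genes.

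Atp6v1e1, which encodes a peripheral stalk subunit, was higher by at least 1.5-fold in the adult WT than in the young WT library in 4 of the 6 lineage gates. It was at 155 CPM in adult WT and 96.3 CPM in young WT Prox1 cells (1.61-fold, 1.5 to 1.72). In the blood endothelial gate it was at 122 CPM in adult WT and 73.2 CPM in young WT cells (1.67-fold), in keratinocytes it had a ratio of 1.79, and in the Cd207 gate it was at 158 CPM in adult WT and 103 CPM in young WT cells (1.54-fold). In Dpt fibroblasts (1.48-fold) and macrophages (1.24-fold) it was within 1.5-fold. With 1 library per age, age and library cannot be told apart.

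The other gates gave few further differences with age. In the blood endothelial gate 1 of 37 genes was higher in adult WT (Atp6v1e1), against 3.52% of all genes, and Cd63 (0.580-fold) and Hexa (0.664-fold) were lower, against 3.7%. In keratinocytes Atp6v1e1 alone of 34 was higher, against 3.83%, and 0 were lower, against 2.52%. In Dpt fibroblasts Gpnmb was higher, at 193 CPM in adult WT and 80.9 CPM in young WT cells (2.38-fold, 2.14 to 2.66), against 5.59% of all genes, and 0 of 38 were lower, against 9.7%. The make-up of this gate also differed. Rgs5 was at 374 CPM in adult WT and 1271 CPM in young WT cells. Cd74, a marker of the Langerhans list, was at 7.87 CPM in adult WT and 151 CPM in young WT cells. The part of other lineages in the Gpnmb difference was not tested. In Langerhans cells of the Cd207 gate Ctsl (1.58-fold) and Atp6v1e1 were higher, against 4.89%, and 0 of 37 were lower, against 5.17%. Macrophages held the most: 10 of 40 were lower in adult WT, against 11.6% of all genes, among them Atp6v0c with 4 UMIs in adult WT and 52 in young WT (0.304-fold, 0.0798 to 0.825), Gusb (0.542-fold) and Ctsl (0.552-fold), and 2 were higher (Atp6v0d2 and Tfeb), against 11.5%. These ratios rest on 66 adult WT cells, and Cd207 was at 517 CPM in them and at 281 CPM in the young WT macrophages; the part of Langerhans transcripts in the difference was not tested.

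Further lysosomal genes outside the list were read in Prox1 cells from lists of the same pathway. Beside the counts of all these lists, 23.3% of all genes were higher and 16.2% lower by genotype, and 4.73% higher and 4.87% lower by age. Of 26 other hydrolases counted (35 listed), 11 were higher in adult Lang-DTA than in adult WT cells and 4 lower, with a median log2 ratio of 0.38. Among the higher were Idua (22.1 CPM in adult Lang-DTA and 4.23 CPM in adult WT cells, 5.23-fold), Tpp1 (115 and 35.5 CPM in adult Lang-DTA and adult WT cells, 3.25-fold) and Hgsnat (2.20-fold), and the lowest were Arsb (0.288-fold), Ids (0.443-fold), Gm2a (0.499-fold) and Ctso (0.556-fold). Idua, Hgsnat, Arsb and Ids all serve glycosaminoglycan breakdown and stood on both sides. Of 14 other membrane proteins and transporters (21 listed), 8 were higher and 2 lower, led by the cystine exporter Ctns (64.5 CPM in adult Lang-DTA and 15.5 CPM in adult WT cells, 4.16-fold), the chloride-proton exchanger Clcn7 (3.13-fold), Lmbrd1 of cobalamin export (3.09-fold) and Slc17a5 (2.41-fold), with Mfsd8 and Tmem175 lower (0.634-fold and 0.635-fold).

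Of 7 V-ATPase genes outside the list that could be counted (15 listed), most of them assembly or regulatory genes, 0 were higher and Ncoa7 (0.537-fold) and Tcirg1, another isoform of the large V0 subunit (13.6 CPM in adult Lang-DTA and 24.9 CPM in adult WT cells, 0.546-fold), were lower. Of 6 genes of mannose 6-phosphate sorting, which tags and delivers the hydrolases (9 listed), 3 were higher: Gnptg (74.0 CPM in adult Lang-DTA and 16.5 CPM in adult WT cells, 4.48-fold), the receptor Igf2r (2.15-fold) and Gga2 (2-fold). In the list of the TFEB family and Rag GTPases, 6 of 13 counted (16 listed) were higher, a count that includes Gdf15. Gdf15 was chosen for the split with these data known, so its own place in the count is no result. The others of the 6 were Rragc (222 CPM in adult Lang-DTA and 67.1 CPM in adult WT cells, 3.31-fold), Lamtor1, which anchors the Rag complex (3.17-fold), the folliculin partner Fnip1 (2.30-fold), Rraga (1.79-fold) and Lamtor3 (1.58-fold). Mitf was lower, at 8.72 CPM in adult Lang-DTA and 14.2 CPM in adult WT cells (0.613-fold). Of 20 autophagy genes counted (21 listed), 7 were higher and 0 lower, led by Gabarapl1 (386 CPM in adult Lang-DTA and 125 CPM in adult WT cells, 3.09-fold), Optn (3.06-fold), Tecpr1 (2.11-fold) and Nbr1 (2.07-fold). In the list of lipid load and lysosome damage, 4 of 9 (10 listed) were higher (Hmox1 2.13-fold, Fabp5 1.92-fold, Abcg1 1.77-fold and Lgals3 1.75-fold) and Cd36 (0.307-fold) and Fabp4 (0.347-fold) lower. Fabp5, Cd36 and Fabp4 all handle fatty acids and stood on both sides. Between adult WT and young WT Prox1 cells, 5 of 25 other hydrolases were lower in adult WT (Manba 0.505-fold, Ctsh 0.513-fold, Arsa 0.633-fold and Ctsf 0.659-fold the lowest), Tmem9 of 8 V-ATPase genes was lower (0.606-fold), and Lgals3 of 9 lipid and damage genes was higher (2.27-fold).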

How the data were processed

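For each of the 3 libraries the authors deposited raw UMI counts by gene and cell-called barcode, not normalized. They were made with Cell Ranger, version 8.01 on GRCm38 per the submitters' processing notes and 8.0.1 per the file headers, from 10x Genomics 3' v4 libraries per the labels. Whether intronic reads were counted or free RNA was removed is not given in these sources. Libraries held 124590777 (adult Lang-DTA), 128595813 (adult WT) and 137441575 (young WT) UMIs. Barcodes with at least 500 genes, 1000 UMIs and at most 10% mitochondrial UMIs were kept, and 701, 687 and 638 barcodes in adult Lang-DTA, adult WT and young WT were removed as doublets by their likeness to 2 artificial doublets made per cell (50 neighbours in a space of 30 principal components, with an assumed rate of 0.4% per 1000 barcodes). This left 12240, 11934 and 11761 cells in adult Lang-DTA, adult WT and young WT.

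Gates required at least 2 UMIs of Prox1, Dpt or Cd207, at least 3 of Cdh5 and Ptprb with no Prox1 or Mmrn1, at least 0.3% of UMIs from Krt5 and Krt14, or at least 5 of C1qa, C1qb and C1qc. UMIs were summed per gate and library and given as CPM with exact Poisson intervals; ratios have exact conditional binomial 95% intervals. All intervals cover counting error only. A gene was compared with a mean of at least 10 CPM and at least 30 UMIs over both sides, and named past 1.5-fold: all such members in the genotype comparison of Prox1 cells, otherwise up to 3 per direction by ratio, and up to 4 per direction of each further list. One gene of a further list is not reported here. Some further members, and Atp6v0a2 of a further list, were named, chosen after their values were seen. A ratio against 0 UMIs used 3 counts. Gates under 50 cells give levels only. T cells had at least 3 UMIs of Cd3e, Cd3g, Cd3d and Trdc and passed no lineage gate. Cells were called male or female from Y-linked genes and Xist. Members, gates and lists were chosen with earlier results of these data known. The ratio and interval steps were tested on simulated counts. Software was scikit-learn 1.9.0, scipy 1.17.1, pandas 2.3.3, matplotlib 3.10.9 and numpy 2.4.6 under Python 3.11.15.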

Additional observations from a re-analysis of the deposited data

Results flagged for a closer look

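Gpnmb differed in opposite directions between cell types in the genotype comparison: its log2 ratio, adult Lang-DTA over adult WT, was 4.26 in Prox1 cells and -0.99 in Dpt fibroblasts. The difference between the cell types was not tested, since each rests on 1 library per genotype. In fibroblasts the adult WT library (193 CPM) stood above both the adult Lang-DTA (97.4 CPM) and the young WT library (80.9 CPM). Markers of other lineages also differed between the libraries in the Dpt gate, and their part was not tested.

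Neu1 differed in opposite directions between libraries in the split by Gdf15: its log2 ratio, cells with at least 2 Gdf15 UMIs over cells with none, was 1 in the adult Lang-DTA library and -0.76 in the adult WT library. The adult WT value rests on 13 UMIs in cells with Gdf15 and has a ratio of 0.592 (0.306 to 1.05), so its interval includes no difference. The difference between the libraries was not tested.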

How the results depend on the processing

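No paired analysis was possible because each condition is 1 library, and no replicate could be left out. Counts of genes higher by at least 1.5-fold in Prox1 cells, adult Lang-DTA over adult WT, were 27 as reported and 19 to 29 over the alternatives, in Prox1 cells without Gdf15 17 and 14 to 22, and between Gdf15 classes of the adult Lang-DTA library 25 and 19 to 26. Of the 27, 26 stayed past 1.5-fold in every alternative that counted them and all 27 kept their direction; the exception was Neu1. Counts of lower genes, which are small, moved more. In Prox1 cells by genotype, 1 was lower as reported, 2 in male-called cells and 0 at a minimum mean of 50 CPM. Without Gdf15, 1 was lower as reported, 0 with doublets kept, in male-called cells and after thinning, and 2 with no filter on low genes. Between Gdf15 classes, 4 were lower as reported, 2 with doublets kept, with Gdf15 of at least 1 and with median-of-ratios scaling, and 0 at 50 CPM. By age, 2 were lower as reported, 1 with doublets kept and with stricter gates, 5 in male-called cells, and 0 with median-of-ratios scaling and at 50 CPM; 1 was higher as reported and 2 with no filter on low genes. At 50 CPM fewer genes are counted; for the other settings the cause was not tested. In the blood endothelial gate the count of higher genes was 5 as reported and 2 to 10 over the alternatives, with 3 under stricter gates or in male-called cells, 10 in female-called cells and 2 once cells with lymphatic UMIs were left out, and in macrophages 4 and 1 to 7. That alternative, and Prox1 cells without macrophage, melanocyte or Ptprc UMIs, in which 27 were higher and 1 lower, were chosen after seeing the data. Of these counts and the genes named in them, none changed sign. Depth limits Atp6v0d2, Atp6v0c and the adult WT cells with Gdf15.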
